A study of Macaca fascicularis with 23 samples.

Results

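Livers of cynomolgus monkeys (Macaca fascicularis) dosed over 15 days with 30 mg/kg/day of ciprofibrate were compared with livers of monkeys given vehicle alone for the same time. The 4 animals titled with that dose and the 3 titled as 15-day vehicle controls were taken, which is 7 of the 23 arrays of the study, each from a different animal, and all probe sets other than the array's own controls were used. The study also gave 3, 150 and 400 mg/kg/day for 15 days to 4 animals each, and 400 mg/kg/day or vehicle for 4 days to 2 animals each. RNA was taken from the right lateral lobe of the liver and measured on an array whose probes were designed against human transcripts. Differences between the monkey and the human sequence can therefore lower the signal of a probe set. Strain, age and sex of the animals, the route of dosing and the vehicle's makeup are not stated in the labels. Below, the animals carry the replicate numbers of their labels, animals 1 to 4 at 30 mg/kg/day and animals 1 to 3 on vehicle.

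Ciprofibrate is a fibrate, a class of lipid-lowering agonists of PPAR-alpha, a nuclear receptor. The receptor pairs with the retinoid X receptor on DNA and in hepatocytes switches on genes that take up fatty acids, carry them into mitochondria and peroxisomes and oxidise them there. In rodents, fibrates enlarge and multiply liver peroxisomes, while primate livers are known to respond far less in this way.

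Values are probe set intensities on a linear scale, and differences are on the log2 scale after a pseudocount of 16. Of 12558 probe sets, 7535 passed a limit on mean intensity of 39.7 over all animals and were tested, and 5462 genes were represented by their brightest such probe set. A call is an adjusted p under 0.05 after Benjamini-Hochberg adjustment over those 7535 probe sets in limma. Trimmed means of the 23 arrays lay between 150.065 and 150.08, and the number of arrays limits the precision. Animal 4 at 30 mg/kg/day had the lowest mean correlation with its own group, 0.846, where the other 3 treated animals had 0.873 to 0.878. Vehicle animal 1 had 0.870 and the other vehicle animals 0.887 and 0.890. ACTB intensity at the 5' end over that at the 3' end, a sign of RNA integrity, ran from 0.507 to 0.704 at 30 mg/kg/day and from 0.540 to 0.606 in vehicle. The same ratio for GAPDH ran from 0.659 to 1.37 at 30 mg/kg/day and from 0.721 to 1.31 in vehicle. Hepatocyte markers were bright in every animal of both groups, with a summed intensity over 11 measured markers of 99668 to 125732 at 30 mg/kg/day and 93924 to 105384 in vehicle.

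At 30 mg/kg/day a single probe set was called, and it fell. It belongs to KLF11, a Krüppel-like transcription factor that represses and activates genes of growth and metabolism. Its intensity was 24.4, 42.3, 32.0 and 58.7 in animals 1 to 4 at 30 mg/kg/day, against 209.0, 213.8 and 257.1 in vehicle animals 1 to 3. All 4 treated animals lay far below all 3 vehicle animals. The mean was 39.4 ± 14.8 (SD, n = 4) at 30 mg/kg/day and 226.6 ± 26.5 (SD, n = 3) in vehicle, a difference of -2.16 ± 0.32 (SE; limma adjusted p = 0.00478). The treated mean lay at the filter's limit of 39.7, so the size of the fall depends on the pseudocount: it was -2.56 with a pseudocount of 1 and -1.50 with one of 64. No probe set was called higher, which is 0% of those tested, and 0.0133% were called lower. Without vehicle animal 3 the adjusted p of KLF11 was 0.0543, and in a fit on the 7 arrays alone it was 0.152. The fit on those 7 arrays still called 1 probe set lower, which was a different one. The count of called probe sets was 0 without vehicle animal 3, 3 without animal 3 at 30 mg/kg/day and 5 without animal 4.

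The array carries another tested probe set for KLF11, and it differed from the called one. It read 94.7, 88.8, 65.2 and 125.6 in animals 1 to 4 at 30 mg/kg/day, against 23.2, 91.5 and 47.7 in vehicle animals. Vehicle animals 1 and 3 were the lowest there, while vehicle animal 2 lay among the treated animals. Its difference was 0.74 ± 0.34 (adjusted p = 0.497), in the opposite direction. The fall is thus a measurement of one probe set.

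The fall of the called KLF11 probe set did not follow the dose. Its mean was 226.6 in vehicle, 170.0 at 3, 39.4 at 30, 131.2 at 150 and 91.9 at 400 mg/kg/day. The lowest single animal outside the 30 mg/kg/day group was one at 400 mg/kg/day with 37.0, and the other 3 animals at that dose lay between 106.6 and 112.1. The difference of 30 minus 3 mg/kg/day was -1.77 ± 0.29 (adjusted p = 0.0311), the difference of 30 minus 150 mg/kg/day was -1.41 ± 0.29 (adjusted p = 0.0741), and that of 30 minus 400 mg/kg/day was -0.91 ± 0.29 (adjusted p = 0.102). These 3 differences share the same treated animals with the comparison against vehicle.

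**Figure D1:**
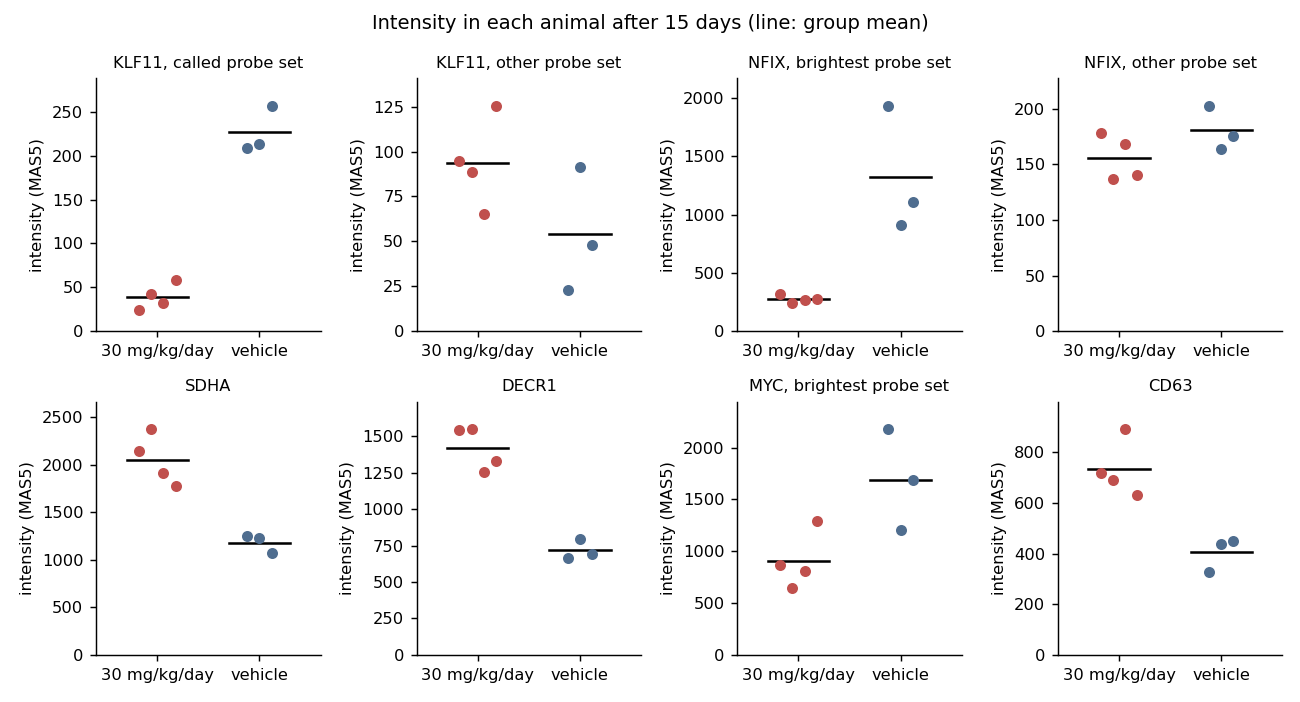
Probe set intensity (vertical axes, linear, from 0) in each animal at 30 mg/kg/day (left, red, 4 animals) and on vehicle (right, blue, 3 animals) after 15 days, with the group mean as a line. The called KLF11 probe set lay between 24.4 and 58.7 in treated animals and between 209.0 and 257.1 in vehicle animals, while the gene's other probe set ran the opposite way. NFIX, SDHA, DECR1, MYC and CD63 were not called.

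The next smallest p belonged to NFIX, a nuclear factor I protein that binds promoters in developing and adult tissues. It read 319.3, 244.1, 266.2 and 274.2 in animals 1 to 4 at 30 mg/kg/day, against 1936.4, 909.1 and 1112.4 in vehicle animals. The groups were far apart, and vehicle animal 1 was the highest. The difference was -2.12 ± 0.40 and missed the threshold (adjusted p = 0.0895), with adjusted p between 0.0322 and 0.432 over the alternatives tried. A dimmer NFIX probe set read 178.2, 137.2, 168.7 and 140.5 in treated animals, against 202.9, 163.8 and 175.8 in vehicle, a difference of -0.20 ± 0.18 (adjusted p = 0.766). NFIX thus also rests on one probe set.

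Over all tested probe sets 740 had an unadjusted p under 0.05, where 377 would be expected if no gene differed, 392 of them higher and 348 lower at 30 mg/kg/day. At an adjusted p under 0.10 there were 2 probe sets, those of KLF11 and NFIX. The median standard error of a difference was 0.34 on the log2 scale.

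**Figure D2:**
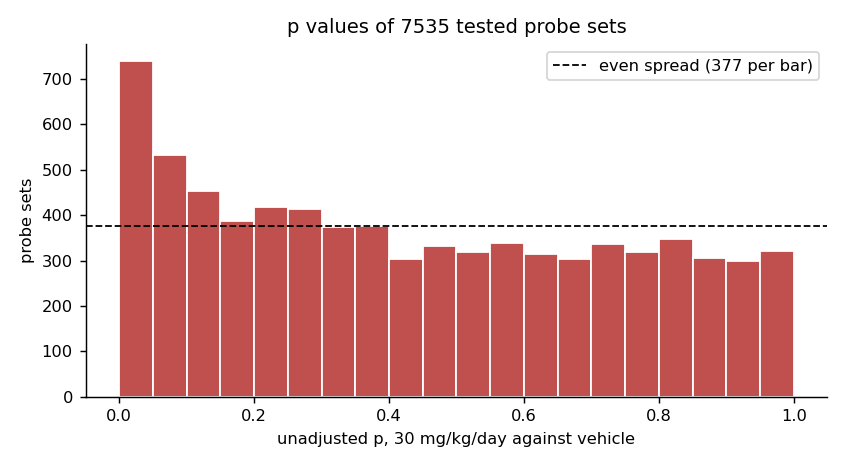
Number of probe sets (vertical axis) by unadjusted p (horizontal axis, bars of width 0.05) for 30 mg/kg/day against vehicle over all tested probe sets, with the even spread of 377 per bar as a dashed line. The first bar holds 740 probe sets.

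Among genes higher at 30 mg/kg/day the smallest p values belonged to genes that were not called, given here as values. SDHA, the flavoprotein of succinate dehydrogenase, which serves both the tricarboxylic acid cycle and the respiratory chain, read 2148.2, 2376.3, 1911.1 and 1781.6 at 30 mg/kg/day, against 1249.0, 1227.5 and 1072.6 in vehicle. Every treated animal was above every vehicle animal, with little spread in either group (difference 0.78 ± 0.16, adjusted p = 0.165). DECR1, the mitochondrial dienoyl-CoA reductase needed to oxidise unsaturated fatty acids, read 1543.1, 1549.5, 1252.5 and 1330.2 at 30 mg/kg/day, against 665.6, 795.5 and 694.5 in vehicle. The treated animals lay well above the vehicle animals, without overlap (1.95-fold, difference 0.96 ± 0.23, adjusted p = 0.203). IARS2, the mitochondrial isoleucyl-tRNA synthetase, read 189.3, 180.4, 167.3 and 114.6 at 30 mg/kg/day, against 35.3, 74.5 and 71.0 in vehicle (difference 1.25 ± 0.26, adjusted p = 0.165). CD63, a tetraspanin of lysosomes and late endosomes, read 717.1, 690.5, 890.3 and 631.9 at 30 mg/kg/day, against 325.8, 437.5 and 449.6 in vehicle (difference 0.83 ± 0.20, adjusted p = 0.193). For both IARS2 and CD63 every treated animal was above every vehicle animal.

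The other genes of this group were VPS11, a subunit of the complexes that tether endosomes and lysosomes (difference 1.92 ± 0.41), PEA15, a small death effector domain protein (1.63 ± 0.40), HSPA4, a chaperone of the Hsp110 family (1.39 ± 0.36), PGAP2 and MPPE1, which act on glycosylphosphatidylinositol anchors (1.29 ± 0.30 and 0.84 ± 0.21), and the tetraspanin TSPAN3 (0.86 ± 0.21). Their adjusted p values lay between 0.177 and 0.205. Treated and vehicle animals overlapped for PGAP2 and HSPA4 and not for the other 4. Dimmer HSPA4 probe sets, below the filter and not tested, differed by 0.04 and 0.14. VPS11 ran from 189.5 to 246.2 at 30 mg/kg/day and from 16.6 to 86.2 in vehicle. PEA15 ran from 163.4 to 213.3 at 30 mg/kg/day and from 42.8 to 60.4 in vehicle. At 3, 150 and 400 mg/kg/day VPS11 averaged 191.4, 153.2 and 147.4 and PEA15 178.6, 167.8 and 140.8. Against the same vehicle animals, with means of 52.7 and 49.6, the group means of these 2 genes were thus higher at every dose. Single animals overlapped vehicle, with VPS11 down to 76.7 at 3 and 65.8 at 150 mg/kg/day. The lowest PEA15 value at 150 mg/kg/day was 40.9, below every vehicle animal. These other doses were not tested against vehicle. Vehicle values of VPS11, PGAP2 and HSPA4 reached below the filter's limit of 39.7, so those differences have no exact size.

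Among genes lower at 30 mg/kg/day and not called, MYC, the growth-promoting transcription factor, read 862.7, 648.2, 811.7 and 1291.0 at 30 mg/kg/day, against 2177.3, 1207.5 and 1683.6 in vehicle. Treated animal 4 lay above vehicle animal 2, and the other 3 treated animals lay below all vehicle animals (difference -0.90 ± 0.20, adjusted p = 0.186). The gene's 3 dimmer probe sets differed by -0.84, -0.78 and -0.34 (adjusted p = 0.582, 0.528 and 0.750). ZFHX3, a large homeobox transcription factor, read 105.6, 47.1, 33.3 and 125.8 at 30 mg/kg/day, against 198.3, 177.4 and 184.8 in vehicle, with no overlap (difference -1.24 ± 0.29, adjusted p = 0.186). TBX10, a T-box transcription factor, read 13.1, 16.2, 10.5 and 8.1 at 30 mg/kg/day, against 177.9, 77.2 and 68.6 in vehicle (difference -2.05 ± 0.47). The treated values of TBX10 were all below the filter's limit of 39.7, so that difference has no exact size. GAK, a kinase of clathrin uncoating, read 849.0, 500.3, 849.3 and 545.2 at 30 mg/kg/day, against 1174.4, 1126.6 and 1170.7 in vehicle, where the animals hardly differed (difference -0.78 ± 0.18, adjusted p = 0.186). The others were ALDH3B2, an aldehyde dehydrogenase (-1.51 ± 0.35), TK2, the mitochondrial thymidine kinase (-1.71 ± 0.42), the kinase MKNK2, which phosphorylates a translation factor (-1.26 ± 0.32), and MSX2P1, a pseudogene in humans (-1.92 ± 0.48), with adjusted p between 0.186 and 0.205. The dimmer MKNK2 probe set, below the filter and not tested, differed by -0.05. Across genes, 218 had all treated animals above all vehicle animals, which is 3.99% of 5462, and 223 had all of them below, which is 4.08%.

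Mitochondrial fatty acid oxidation, a pathway that PPAR-alpha is well known to control in liver, had 20 of the 22 listed genes on the array measured, and none was called. At an unadjusted p under 0.05, 10 of the 20 were higher and 0 lower, against a background over all genes of 5% higher and 4.6% lower. The median difference of the list was 0.46, against -0.01 over all genes tested, and 17 of the 20 differences were positive. In single animals the median over the list's genes, relative to the vehicle mean, was 0.33, 0.62, 0.45 and 0.38 in animals 1 to 4 at 30 mg/kg/day, against -0.27, -0.03 and 0.21 in vehicle animals. Every treated animal lay above every vehicle animal, vehicle animal 3 being the nearest. The summed intensity of the list ran from 31762 to 43734 at 30 mg/kg/day and from 22975 to 33427 in vehicle, so the sums of the groups overlapped. The list's median stayed between 0.37 and 0.54 over the alternatives tried.

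The values followed the steps of the pathway unevenly. For entry, CPT1A, which couples fatty acids to carnitine, read 143.6, 120.4, 109.3 and 150.1 at 30 mg/kg/day, against 44.7, 146.7 and 182.9 in vehicle, within the vehicle spread (difference 0.22 ± 0.39, adjusted p = 0.896). SLC25A20, the carnitine-acylcarnitine carrier of the inner membrane, differed by 0.49 ± 0.26, and SLC22A5, which takes up carnitine into the cell, by -0.19 ± 0.39, both with overlapping groups. For the first dehydrogenation, ACADS, which acts on short chains, read 1042.1, 1118.1, 823.3 and 891.1 at 30 mg/kg/day, against 468.1, 586.7 and 651.9 in vehicle, with no overlap (difference 0.75 ± 0.28, adjusted p = 0.410). ACADVL, for very long chains, differed by 0.42 ± 0.16 (adjusted p = 0.410) and ACADM, for medium chains, by 0.31 ± 0.19 (adjusted p = 0.604), and in both the groups overlapped. ETFA, the electron transfer flavoprotein subunit that receives their electrons, read 1843.4, 2238.8, 2082.2 and 1500.5 at 30 mg/kg/day, against 956.9, 1424.3 and 1449.3 in vehicle (difference 0.59 ± 0.18, adjusted p = 0.325). Its groups did not overlap, though treated animal 4 and vehicle animal 3 were close.

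For the later steps, the trifunctional protein holds the hydratase, the long-chain dehydrogenase and a thiolase. Its beta subunit HADHB read 3804.2, 4247.3, 4226.0 and 3076.9 at 30 mg/kg/day, against 1234.1, 2470.4 and 3182.9 in vehicle. Vehicle animal 3 lay just above treated animal 4, and the other treated animals lay above all vehicle animals (difference 0.83 ± 0.29, adjusted p = 0.394). The alpha subunit HADHA read 644.4, 1071.7, 892.8 and 757.0 at 30 mg/kg/day, against 496.3, 442.5 and 797.8 in vehicle, and its groups overlapped as well (difference 0.55 ± 0.22, adjusted p = 0.430). ACAA2, the thiolase of medium chains, read 4696.6, 7493.8, 5909.4 and 4652.0 at 30 mg/kg/day, against 2814.4, 3440.1 and 5338.0 in vehicle (difference 0.58 ± 0.20, adjusted p = 0.394). Vehicle animal 3 was the highest vehicle animal for HADHB, HADHA, ACAA2 and CPT1A alike. ECI1, an enoyl-CoA isomerase for unsaturated chains, differed by 1.31 ± 0.42 (adjusted p = 0.343), with vehicle values of 59.3, 30.4 and 243.1 that spread widely against 276.7, 300.1, 171.5 and 176.9 at 30 mg/kg/day. Of the 2 measured ketone body enzymes ACAT1 differed by 0.66 ± 0.27 (adjusted p = 0.433) and BDH1 by 0.28 ± 0.23 (adjusted p = 0.733).

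**Figure D3:**
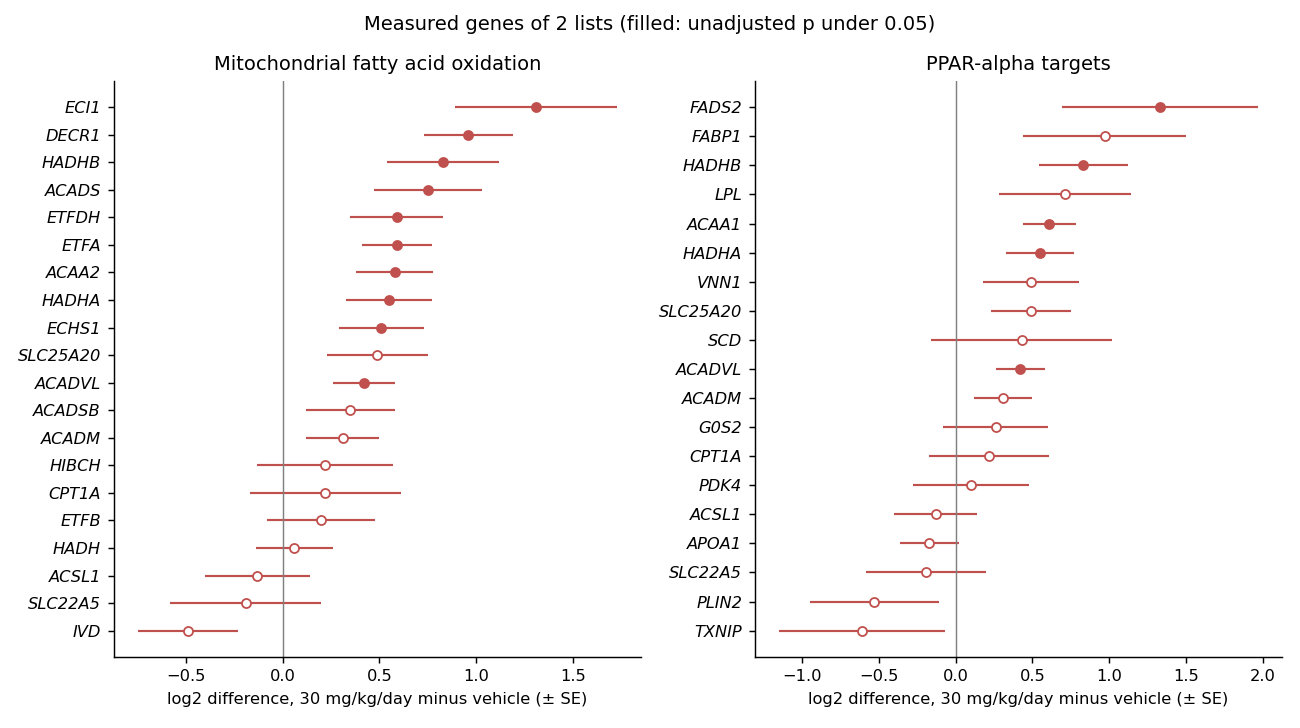
Difference of 30 mg/kg/day minus vehicle (horizontal axis, log2, points with SE bars) for the 20 measured genes of mitochondrial fatty acid oxidation (left) and the 19 measured PPAR-alpha targets (right), with filled points at an unadjusted p under 0.05. None was called after adjustment over all probe sets, and 17 and 14 differences lay above 0.

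The list of known PPAR-alpha targets shares 8 of its 19 measured genes with the oxidation list. At an unadjusted p under 0.05, 5 of the 19 were higher and 0 lower, again against 5% and 4.6% over all genes, with a median of 0.42. The animal medians were 0.33, 0.39, 0.25 and 0.16 at 30 mg/kg/day, against -0.19, -0.04 and 0.26 in vehicle, and vehicle animal 3 lay above treated animals 3 and 4. The smallest p belonged to ACAA1, the peroxisomal thiolase, with 1249.8, 1856.6, 1088.8 and 1587.9 at 30 mg/kg/day, against 972.4, 896.7 and 901.0 in vehicle. Its groups did not overlap (difference 0.61 ± 0.17, adjusted p = 0.255). Other classic targets overlapped between the groups: VNN1, the pantetheinase, differed by 0.49 ± 0.31, PDK4, which blocks pyruvate dehydrogenase, by 0.10 ± 0.38, and PLIN2, which coats lipid droplets, by -0.53 ± 0.42, with adjusted p of 0.632, 0.962 and 0.724. PLIN2 read 238.0, 205.2, 95.8 and 172.9 at 30 mg/kg/day, against 123.8, 257.4 and 485.9 in vehicle, and 3 of the 4 treated animals lay within the vehicle range. The receptor genes themselves, PPARA and RXRA, differed by -0.24 ± 0.20 and 0.06 ± 0.18 (adjusted p = 0.733 and 0.946).

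Fatty acid binding and desaturation split the treated animals. FABP1, the liver fatty acid binding protein, read 1590.1, 1083.2, 3587.6 and 3514.4 in animals 1 to 4 at 30 mg/kg/day, against 672.8, 1263.9 and 1548.1 in vehicle. Animals 3 and 4 were far above every vehicle animal, while animals 1 and 2 lay near the vehicle range. FADS2, which inserts the delta-6 double bond of polyunsaturated fatty acids, read 52.3, 11.4, 404.3 and 345.2 at 30 mg/kg/day, against 52.4, 35.1 and 23.5 in vehicle, with the same animals high. SCD, which makes monounsaturated fatty acids, read 39.9, 107.8, 296.8 and 274.8 at 30 mg/kg/day, against 191.9, 40 and 125.0 in vehicle. Here, too, animals 3 and 4 were the highest. The differences were 0.97 ± 0.53, 1.33 ± 0.64 and 0.43 ± 0.59 for FABP1, FADS2 and SCD, with adjusted p of 0.566, 0.508 and 0.859. ELOVL5, an elongase of polyunsaturated chains, read 194.9, 175.2, 297.4 and 212.7 at 30 mg/kg/day, against 169.0, 227.2 and 130.9 in vehicle (difference 0.31 ± 0.26). In the oxidation list, in contrast, animal 2 had the highest median. Animal 4 is also the array with the lowest correlation to its group and the highest ACTB ratio, whereas animal 3 had the lowest ACTB ratio, and the part of either in these values was not tested. Fatty acid and triglyceride synthesis had a median of 0.18 over 16 measured genes. At an unadjusted p under 0.05, 3 were higher and 1 lower, against 5% and 4.6% over all genes. Besides FADS2 these were LPIN1 and LPIN2, phosphatidate phosphatases that differed by 0.92 ± 0.40 and -1.20 ± 0.54, and ACACB, the acetyl-CoA carboxylase of the mitochondrial surface (0.47 ± 0.21), with adjusted p between 0.462 and 0.508. The dimmer ACACB probe sets differed by 0.12 and 0.15 (adjusted p = 0.95 and 0.904).

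No gene of peroxisomal oxidation and assembly was called. Of 16 measured genes 3 were higher and 0 lower at an unadjusted p under 0.05, against 5% and 4.6% over all genes, with a median of 0.10. Besides ACAA1 these were HSD17B4, the bifunctional protein, and ACOX2, the oxidase of branched chains and bile acid intermediates. HSD17B4 read 618.2, 930.6, 730.9 and 769.1 at 30 mg/kg/day, against 356.9, 423.6 and 620.1 in vehicle, and vehicle animal 3 was just above treated animal 1 (difference 0.71 ± 0.23, adjusted p = 0.340). ACOX2 read 332.8, 500.3, 326.1 and 386.1 at 30 mg/kg/day, against 319.4, 203.0 and 180.4 in vehicle, with no overlap (difference 0.70 ± 0.23, adjusted p = 0.351). Catalase, CAT, read 872.9, 1053.6, 1178.0 and 428.5 at 30 mg/kg/day, against 347.3, 1070.8 and 718.2 in vehicle, and its groups overlapped (difference 0.35 ± 0.36, adjusted p = 0.790). PEX19, a receptor for peroxisomal membrane proteins, differed by 0.46 ± 0.27 (adjusted p = 0.592).

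Oxidative phosphorylation, the respiratory chain and ATP synthase, had a median of 0.18. At an unadjusted p under 0.05, 12 of 51 measured genes were higher and 1 lower, against 5% and 4.6% over all genes. In 11 of the 51 all treated animals were above all vehicle animals, against 3.99% over all genes. The animal medians were 0.23, 0.36, 0.11 and 0.10 at 30 mg/kg/day and 0.01, 0.00 and 0.02 in vehicle, so animals 1 and 2 were the higher ones. By complex, 4 of 20 genes were higher in complex I, 1 of 3 (SDHA) in complex II and 1 of 5 in complex III. In complex IV 3 of 10 were higher and in ATP synthase 3 of 12, against 5% over all genes. The medians were 0.11, 0.11, 0.38, 0.31 and 0.09 in the same order. After SDHA, the smallest p values belonged to the ATP synthase coupling factor ATP5PF and the cytochrome oxidase subunits COX4I1 and COX5A. ATP5PF read 88.6, 73.2, 51.5 and 76.9 at 30 mg/kg/day, against 15.9, 14.8 and 21.0 in vehicle, values below the filter's limit, so its difference of 1.4 ± 0.36 (adjusted p = 0.205) has no exact size. COX4I1 read 778.8, 799.1, 657.2 and 571.1 at 30 mg/kg/day, against 258.3, 477.6 and 440.3 in vehicle (difference 0.85 ± 0.24, adjusted p = 0.255). COX5A read 1216.8, 928.5, 749.9 and 873.7 at 30 mg/kg/day, against 390.4, 668.2 and 641.3 in vehicle (difference 0.73 ± 0.21, adjusted p = 0.260). None of these 3 genes had overlapping groups. The single lower gene, chosen after its values were seen, was ATP5F1D, the delta subunit of ATP synthase (-0.74 ± 0.23).

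In the tricarboxylic acid cycle list, with a median of 0.19, 2 of 14 measured genes were higher and 0 lower at an unadjusted p under 0.05. The background over all genes was 5% higher and 4.6% lower. The 2 were SDHA and PDHB, a pyruvate dehydrogenase subunit, which differed by 0.48 ± 0.19 (adjusted p = 0.430). The urea cycle and amino acid breakdown list had 21 of 25 differences above 0 and a median of 0.24. At an unadjusted p under 0.05, 2 of the 25 were higher, close to the background of 5% over all genes. These were MAT1A, which makes S-adenosylmethionine, with a difference of 0.59 ± 0.17 (adjusted p = 0.286), and the alanine aminotransferase GPT with 0.39 ± 0.17 (adjusted p = 0.487). Its animal medians of 0.41, 0.44, 0.03 and 0.06 put treated animals 1 and 2 above, and treated animals 3 and 4 within, the vehicle range of -0.21 to 0.18. Chaperones and ER stress genes had a median of 0.38 over 25 genes. Treated animals 1 and 2 were again the higher ones, with 0.46 and 0.40, against 0.09 and 0.12 in animals 3 and 4. Here all 4 treated animals lay above the vehicle range of 0.02 to 0.07, animals 3 and 4 only narrowly. Of these 25 genes 3 were higher and 1 lower at an unadjusted p under 0.05, against 5% and 4.6% over all genes. HSPE1, the small mitochondrial chaperonin, read 854.7, 656.4, 553.9 and 430.0 at 30 mg/kg/day, against 164.2, 320.9 and 466.2 in vehicle (difference 1.01 ± 0.29, adjusted p = 0.260). P4HB, a protein disulphide isomerase, was the lower one (-0.49 ± 0.16, adjusted p = 0.351), but its dimmer probe set differed by 0.67 in the opposite direction (adjusted p = 0.392).

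The proteasome had a median of 0.16. At an unadjusted p under 0.05, 5 of 33 measured subunits were higher and 0 lower, against 5% and 4.6% over all genes. PSMA3, of the 20S core, read 989.9, 785.4, 597.4 and 670.6 at 30 mg/kg/day, against 457.3, 515.4 and 429.9 in vehicle, with no overlap (difference 0.66 ± 0.17, adjusted p = 0.205). PSMB1 of the core differed by 0.53 ± 0.20, and PSMC2 and PSMC6, ATPases of the cap, by 0.52 ± 0.20 and 0.66 ± 0.30 (adjusted p = 0.410, 0.430 and 0.491). In the oxidative stress list, with a median of 0.11, 3 of 24 genes were higher and 0 lower, against the same 5% and 4.6%. NQO1, a quinone reductase, read 263.5, 304.7, 283.1 and 421.5 at 30 mg/kg/day, against 293.5, 196.7 and 156.2 in vehicle, where vehicle animal 1 lay among the treated animals (difference 0.55 ± 0.25, adjusted p = 0.491). The aldo-keto reductase AKR1B10 and the redox protein TXN differed by 0.04 ± 0.40 and 0.01 ± 0.19.

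Immediate early and stress genes were lower in sum, without a called gene. Their summed intensity ran from 15105 to 17084 at 30 mg/kg/day and from 19999 to 21004 in vehicle, with no overlap. Of 26 measured genes 18 had differences below 0, and the median was -0.29. At an unadjusted p under 0.05, 4 were lower and 1 higher, against 4.6% lower and 5% higher over all genes. Besides MYC, these included ZFP36, which destabilises mRNAs, with 341.3, 294.6, 294.2 and 482.6 at 30 mg/kg/day, against 544.3, 551.8 and 439.7 in vehicle (difference -0.54 ± 0.19, adjusted p = 0.394). Treated animal 4 was above vehicle animal 3, and the other treated animals were below all vehicle animals. CCN2, a matrix-associated growth factor, read 62.1, 60.2, 7.2 and 99.8 at 30 mg/kg/day, against 101.5, 172.4 and 114.6 in vehicle (difference -1.17 ± 0.45, adjusted p = 0.414). The kinase PIM1 differed by -0.37 ± 0.16 and the phosphatase DUSP1 by -0.74 ± 0.36 (adjusted p = 0.487 and 0.510). The dimmer PIM1 probe set differed by 0.42, in the opposite direction (adjusted p = 0.668). The list medians against vehicle were -0.37 at 3, -0.29 at 30, -0.32 at 150 and -0.35 at 400 mg/kg/day, and these doses share the vehicle animals.

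**Figure D4:**
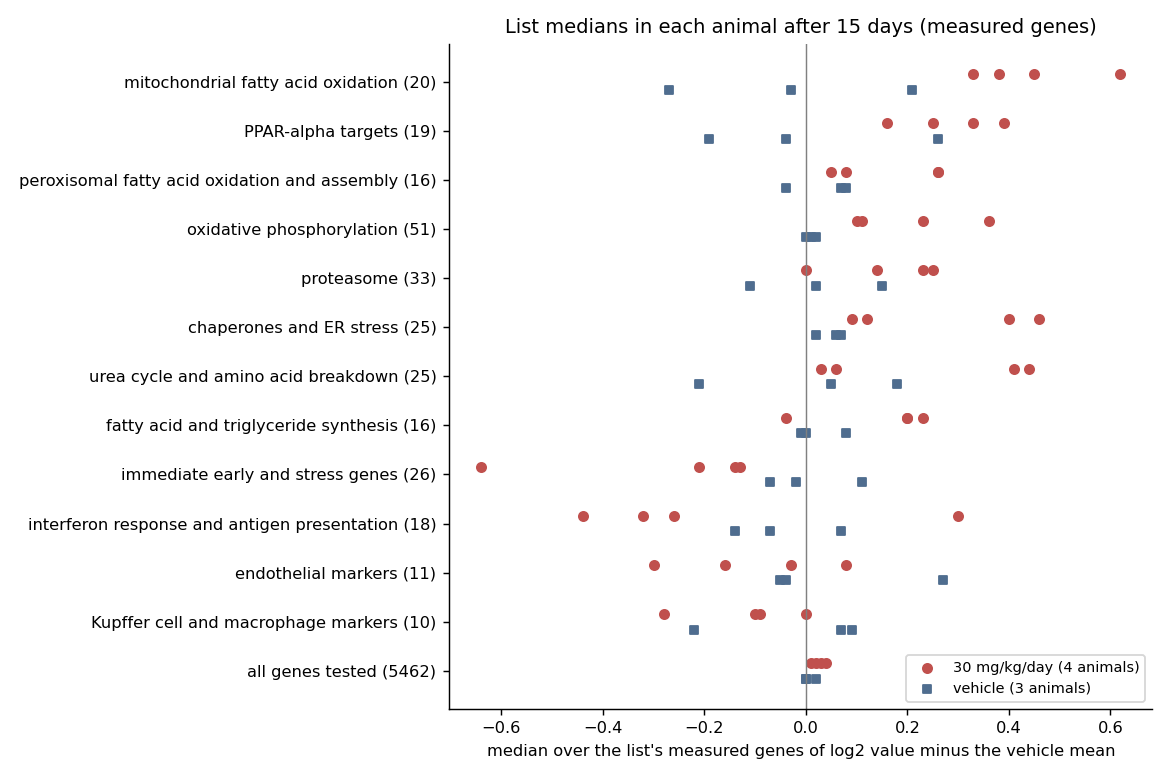
Median over each list's measured genes (number in brackets) of the log2 value minus the vehicle mean (horizontal axis), in each animal at 30 mg/kg/day (red circles, upper row) and on vehicle (blue squares, lower row). The 4 treated animals lie above all vehicle animals for mitochondrial fatty acid oxidation and oxidative phosphorylation, at 0.33 to 0.62 and 0.10 to 0.36. They also do so for chaperones and ER stress genes, at 0.09 to 0.46. They lie below all vehicle animals for immediate early and stress genes.

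In whole liver, fewer cells of a type and less RNA per cell cannot be told apart. Of the 9 marker lists of liver and blood cells, none had a called gene. Endothelial markers had a median of -0.28 over 11 genes and summed to 1985 to 2484 at 30 mg/kg/day, against 2486 to 2714 in vehicle. At an unadjusted p under 0.05, 0 were higher and 1 lower, against 5% and 4.6% over all genes. The lower one was PECAM1 (-0.78 ± 0.38, adjusted p = 0.509). The dimmer PECAM1 probe sets differed by -0.14 and 0.45 (adjusted p = 0.956 and 0.800). Kupffer cell and macrophage markers had a median of -0.12 over 10 genes and summed to 4194 to 4789 at 30 mg/kg/day, against 4362 to 5841 in vehicle. Their receptor gene CSF1R read 153.3, 186.7, 135.8 and 133.0 at 30 mg/kg/day, against 85.8, 107.9 and 92.0 in vehicle, above all vehicle animals (0.59 ± 0.23, adjusted p = 0.430), while CD5L differed by -0.71 ± 0.38. Stellate cell and fibroblast markers had a median of -0.10 over 14 genes. Their TIMP1, an inhibitor of metalloproteinases, read 44.6, 124.0, 37.3 and 47.6 at 30 mg/kg/day, against 285.3, 173.4 and 143.2 in vehicle, with no overlap (-1.51 ± 0.42, adjusted p = 0.255). The medians were -0.29 for cholangiocyte markers, -0.21 for T and NK cell markers, -0.26 for B and plasma cell markers, -0.21 for neutrophil markers and -0.16 for red cell markers, over 5 to 10 genes each, and 0.13 for hepatocyte markers. The animal medians of hepatocyte markers were 0.24, 0.18, 0.35 and 0.09 at 30 mg/kg/day, against -0.03, 0.00 and -0.12 in vehicle, without overlap. Of the 11 differences 10 were positive. The part of hepatocytes in the lists given above as higher was not tested. Summed endothelial markers were thus lower in all 4 treated animals, though by a narrow margin. Other summed lists were lower without overlap too, among them immediate early genes. Cholangiocyte markers summed to 384 to 482 at 30 mg/kg/day, against 498 to 567 in vehicle. The same held for gluconeogenesis and glycolysis, cell cycle and DNA replication, and nuclear receptors and hepatocyte transcription factors. Sums of some other lists were higher without overlap, such as oxidative phosphorylation, at 50047 to 58971 against 47922 to 49303. The animal medians of endothelial markers overlapped. They were -0.16, -0.03, 0.08 and -0.30 in animals 1 to 4 at 30 mg/kg/day, against -0.05, -0.04 and 0.27 in vehicle. The part of endothelial cells in the immediate early result was not tested.

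Lists with medians near 0 included the plasma proteins of the liver. Complement had a median of -0.09, coagulation 0.11, acute phase and other plasma proteins 0.09, apolipoproteins 0.10, the growth hormone and IGF axis 0.00, metallothioneins -0.04, xenobiotic enzymes 0.01, cholesterol synthesis 0.07, bile acid genes -0.03 and ribosomal proteins 0.01. Within coagulation the animal medians were 0.14, 0.11, 0.28 and 0.14 at 30 mg/kg/day, against -0.03, 0.01 and -0.11 in vehicle, without overlap. Across all of these lists 0 to 4 genes each were higher and 0 to 3 lower at an unadjusted p under 0.05. Over all genes the shares were 5% and 4.6%. Among their genes APOB, the protein of very low density lipoprotein, read 7109.2, 10825.2, 9370.6 and 9976.2 at 30 mg/kg/day, against 6543.2, 6737.0 and 5146.1 in vehicle (difference 0.59 ± 0.26, adjusted p = 0.461). No treated animal overlapped the vehicle animals there, while RBP4, the retinol carrier, overlapped (0.81 ± 0.28, adjusted p = 0.389). APOA1 and APOC3, of high density and triglyceride-rich lipoproteins, differed by -0.17 ± 0.19 and -0.06 ± 0.18 (adjusted p = 0.802 and 0.954). CYP2E1, which oxidises ethanol, differed by 0.45 ± 0.49 (adjusted p = 0.802), and its other probe set by 0.41 ± 0.45. Gluconeogenesis and glycolysis had 2 of 23 genes lower at an unadjusted p under 0.05, against 4.6% over all genes. These were PKM, a pyruvate kinase (-0.94 ± 0.38), and PCK1, the rate-limiting enzyme of gluconeogenesis (-0.53 ± 0.24), with adjusted p of 0.432 and 0.491. The dimmer PCK1 probe set differed by 0.13 (adjusted p = 0.962). That of PKM, below the filter and not tested, differed by 0.10. Interferon and antigen genes had 2 of 18 lower, against the same 4.6%. These were OAS2 and IFI6 (-0.65 ± 0.25 and -1.63 ± 0.66, adjusted p = 0.415 and 0.430). Dimmer probe sets below the filter, which were not tested, differed by -1.09 for OAS2 and 0.09 for IFI6. The control genes were not level: ACTB read 3807.7, 2570.8, 2277.1 and 1797.7 at 30 mg/kg/day, against 1258.6, 1748.9 and 2348.8 in vehicle (0.54 ± 0.21, adjusted p = 0.415), and GAPDH differed by -0.41 ± 0.21 (adjusted p = 0.547).

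The 30 mg/kg/day animals were then set against the other doses of the same day, which asks where on the dose scale they lie. Against 3 mg/kg/day KLF11 was the only call, with 0% of probe sets higher and 0.0133% lower, and it ended without animal 1 or 3 at 30 mg/kg/day and without animal 1, 3 or 4 at 3 mg/kg/day. Its adjusted p there was 0.194 in the fit on these groups alone, 0.085 with the replicate block and 0.0633 with array weights. The fit on these groups alone called 1 different probe set, lower. Against 150 mg/kg/day the shares were the same, and the only call was MT1G, a metal-binding metallothionein. MT1G read 906.7, 631.3, 540.9 and 320.9 at 30 mg/kg/day, against 7471.6, 3077.3, 7153.4 and 2446.5 at 150 mg/kg/day (difference -2.96 ± 0.46, adjusted p = 0.0135). The groups did not overlap, and at 400 mg/kg/day MT1G was back at 168.1 to 705.6. Metallothionein genes are nearly identical in sequence, so the probe set may read several of them. Its call ended without animal 2 of the 30 mg/kg/day group and without animal 3 of the 150 mg/kg/day group. It also ended without the intensity trend of the fit and with array weights. The same happened without both arrays that correlate least, animal 4 at 30 mg/kg/day and vehicle animal 1. The counts of calls against 3 and 150 mg/kg/day ran from 0 to 2 and from 0 to 6 when single animals were left out.

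Against 400 mg/kg/day 216 probe sets were called, 102 higher and 114 lower at 30 mg/kg/day, which is 1.35% and 1.51% of those tested. They stood for 71 genes higher (1.3% of genes) and 84 lower (1.54%). Of these 155 genes 57 were in any of the lists, where 632 of all 5462 genes were. The lists were chosen with earlier results of these data known, so these counts are a description only. The fit on these 8 animals alone called 76 probe sets, 25 higher and 51 lower. With every array scaled to the same median the split was 49 higher and 141 lower. Leaving out single animals brought the count down to between 105 and 186. It was 125 and 126 without animals 1 and 2 at 30 mg/kg/day, and 105, 143, 113 and 140 without animals 1 to 4 at 400 mg/kg/day.

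FABP1 was 2443.8 ± 1295.4 at 30 mg/kg/day and 11116.8 ± 2046.9 at 400 mg/kg/day (SD, n = 4 each), a difference of -2.33 ± 0.49 (adjusted p = 0.0106). FADS2 was 203.3 ± 200.1 at 30 mg/kg/day and 971.5 ± 217.8 at 400 mg/kg/day (difference -2.90 ± 0.59, adjusted p = 0.0083). No animal at 30 mg/kg/day reached the lowest at 400 mg/kg/day for either gene, not even the high animals 3 and 4. SCD (-2.68 ± 0.54), ELOVL5 (-1.32 ± 0.24) and SLC22A5 (-2.17 ± 0.36) were lower as well, with adjusted p of 0.00829, 0.00424 and 0.00166. Of the 20 oxidation genes 2 were called, ACAA2 (-0.93 ± 0.19, adjusted p = 0.00829) and SLC22A5, both lower. Of the 19 PPAR-alpha targets 5 were called, all lower: FABP1, FADS2, SCD, SLC22A5 and PLIN2 (-1.45 ± 0.38, adjusted p = 0.0417). Over all genes 1.54% were called lower and 1.3% higher. The PLIN2 call ended in each of the 8 fits without one animal. The oxidation list's median against vehicle was 0.32 at 3, 0.46 at 30, 0.79 at 150 and 0.84 at 400 mg/kg/day, and that of PPAR-alpha targets was 0.13, 0.42, 0.73 and 0.71 at the same doses, all against the same vehicle animals.

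Some genes of oxidation did not differ that way. DECR1 averaged 718.5 in vehicle, 1239.5 at 3, 1418.8 at 30, 1346.1 at 150 and 1348.9 at 400 mg/kg/day, and 30 minus 400 mg/kg/day was 0.08 ± 0.21 (adjusted p = 0.902). ACAA1 averaged 923.4 in vehicle, 1664.0 at 3, 1445.8 at 30, 1921.5 at 150 and 1354.2 at 400 mg/kg/day (30 minus 400 mg/kg/day 0.06 ± 0.16, adjusted p = 0.886). SDHA averaged 1183.0 in vehicle, 2279.6 at 3, 2054.3 at 30, 1625.0 at 150 and 1083.4 at 400 mg/kg/day. It was higher at 30 mg/kg/day, by 0.91 ± 0.15 at 30 minus 400 mg/kg/day (adjusted p = 0.00166), and was called in all 18 alternatives. HADHB, with 3838.6 at 30 and 6603.9 at 400 mg/kg/day, differed by -0.78 ± 0.27 and was not called (adjusted p = 0.145).

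Some redox and xenobiotic genes differed between 30 and 400 mg/kg/day, while 17 of 24 oxidative stress genes and 21 of 24 genes of xenobiotic enzymes were not called. NQO1 read 263.5, 304.7, 283.1 and 421.5 at 30 mg/kg/day, against 1819.9, 1207.5, 1077.0 and 924.3 at 400 mg/kg/day (-1.91 ± 0.23, adjusted p = 3.64e-05). AKR1B10 read 37.5, 12.3, 63.3 and 36.8 at 30 mg/kg/day, against 902.6, 407.2, 405.4 and 739.0 at 400 mg/kg/day (-3.56 ± 0.37, adjusted p = 4.57e-06). Its values at 30 mg/kg/day lay around the filter's limit, so the size is not exact. TXN was 698.4 ± 149.5 at 30 mg/kg/day and 1789.0 ± 371.8 at 400 mg/kg/day (-1.34 ± 0.17, adjusted p = 7.62e-05). In the oxidative stress list 7 of 24 genes were lower at 30 mg/kg/day and 0 higher, where over all genes 1.54% were called lower and 1.3% higher. Among the 7 were the peroxide reductases PRDX1 (-1.77 ± 0.39) and GPX4 (-0.82 ± 0.17), both named after their values were seen. The drug-oxidising CYP3A4 was lower by -0.93 ± 0.24 (adjusted p = 0.0371), a call that ended in 5 of the 8 fits without one animal. CYP2E1 read 20574.6, 24211.1, 16092.1 and 14843.5 at 30 mg/kg/day, against 244.1, 2035.6, 1544.8 and 2091.5 at 400 mg/kg/day. Every animal at 30 mg/kg/day was far above the highest at 400 mg/kg/day, and the difference was 4.01 ± 0.45 (adjusted p = 1.44e-05), with 3.43 ± 0.41 for its other probe set.

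Several genes of proteins that hepatocytes secrete were called higher at 30 than at 400 mg/kg/day, though most members of their lists were not called. HGFAC, the activator of hepatocyte growth factor, read 1668.4, 1620.2, 1365.6 and 2147.0 at 30 mg/kg/day, against 375.1, 583.3, 349.2 and 332.5 at 400 mg/kg/day (2.03 ± 0.19, adjusted p = 2.08e-06). IGFALS, which holds insulin-like growth factors in the circulation, was 1292.7 ± 247.6 at 30 mg/kg/day and 286.1 ± 56.3 at 400 mg/kg/day (2.11 ± 0.30, adjusted p = 0.000205). SPP2, a secreted phosphoprotein of bone and plasma, was 325.4 ± 116.1 at 30 mg/kg/day and 40.6 ± 18.4 at 400 mg/kg/day (2.60 ± 0.34, adjusted p = 7.87e-05). APOA4, an apolipoprotein, differed by 2.92 ± 0.66, the protease inhibitor PZP by 2.61 ± 0.47, the factor H relative CFHR4 by 2.25 ± 0.47 and the fibrinogen-like FGL1 by 2.13 ± 0.49. Of these, APOA4 lost its call in 2 and FGL1 in 5 of the 8 fits without one animal. Complement had 4 of 22 genes higher and 0 lower, coagulation 5 of 30 and 0, and acute phase and other plasma proteins 6 of 27 and 0, where over all genes 1.3% were called higher and 1.54% lower. The growth factor IGF1 (1.36 ± 0.28) and the methyltransferase GNMT (1.11 ± 0.16) were higher too, and the malic enzyme ME1, which supplies NADPH for fatty acid synthesis, was lower (-1.51 ± 0.26), all 3 chosen after their values were seen. For HGFAC the means were 1786.7 in vehicle, 1928.7 at 3, 1700.3 at 30, 822.2 at 150 and 410.0 at 400 mg/kg/day, and for IGFALS 1308.3, 1137.6, 1292.7, 919.1 and 286.1 at the same steps. Against vehicle, HGFAC and IGFALS at 30 mg/kg/day differed by -0.09 ± 0.21 and 0.02 ± 0.33.

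**Figure D5:**
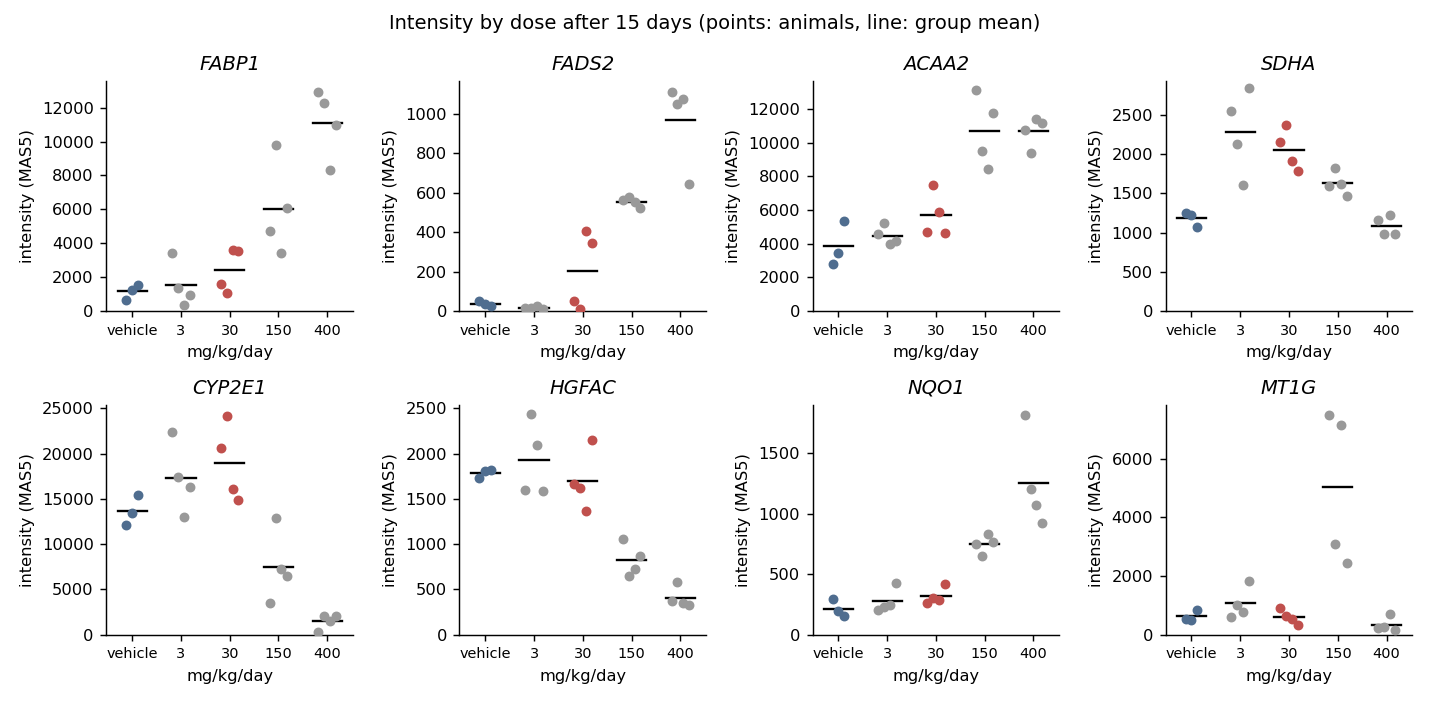
Probe set intensity (vertical axes, linear, from 0) by dose after 15 days (horizontal axes, vehicle to 400 mg/kg/day), with a point per animal (vehicle blue, 30 mg/kg/day red, other doses grey) and the group mean as a line. FABP1, FADS2, ACAA2 and NQO1 at 30 mg/kg/day lie below 400 mg/kg/day and CYP2E1, HGFAC and SDHA above it, while MT1G is high at 150 mg/kg/day alone among these doses.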

How the data were processed

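RNA from 23 monkey livers was measured on 1 array each. Per the submitters' processing notes, the authors used MAS5 to summarise each probe set, and the deposited unit is intensity on a linear scale. No version or setting of MAS5 is stated in the labels. Probes were named from GEO's platform annotation: 10943 of 12558 non-control probe sets named 1 gene, 545 several and 1070 none.

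From these, log2(intensity + 16) was computed without further scaling, and the brightest were kept for testing, dropping those whose mean was below the 40th percentile. A means model over 7 groups of dose and day was fitted to all 23 arrays with limma 3.58.1 in R 4.3.3 with an intensity trend (16 residual and 6.63 prior degrees of freedom), so all groups share one estimate of spread. Tests were two-sided and adjusted by the Benjamini-Hochberg method over 7535 probe sets. The fit was tested on simulated data. Nothing says that animals were paired. The p values set each difference against the spread between animals within groups, pooled over all 7 groups.

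Named genes were the 15 largest called genes each way, filled to 10 with uncalled genes of smallest p, up to 4 genes of smallest p per list described, a fixed set of lipid, plasma protein and control genes, and the 5 largest calls each way against the other doses. The members and the 36 lists (957 genes, 632 measured) were chosen with earlier results of these data known. List counts and medians are descriptions with no test. Alternatives covered pseudocount, filter, quantile and median scaling, trend, replicate block, array weights, the groups compared alone, the probe set summary and leaving out each animal.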

Additional observations from a re-analysis of the deposited data

Results flagged for a closer look

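Of 98 groups of 4 animals examined, 6 had an animal whose gap to the nearest other exceeded Dixon's critical value, and chance alone gives about 5% of groups. At 30 mg/kg/day these were animal 2 for TSPAN3, with 231.4 against 140.3 to 152.1 in the other animals, and animal 2 for MSX2P1, with 86.8 against 32.8 to 37.5. At 400 mg/kg/day animal 1 stood apart for CYP2E1 with 244.1 where the others had 1544.8 to 2091.5, and animal 2 for CFHR4 with 22.8 where the others had 126.0 to 164.6. Animal 4 at that dose stood apart for FADS2 with 647.0 where the others had 1052.4 to 1112.2, and for ITIH2 with 939.8 where the others had close to 1150.7 each.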

How the results depend on the processing

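Against vehicle, the 1 call became 2 with a pseudocount of 64 and ranged from 0 to 5 when single animals were left out, being 0 without vehicle animal 3, 3 without animal 3 at 30 mg/kg/day and 5 without animal 4. In the fit on the 7 arrays alone the 1 call was a probe set other than that of KLF11, lower. KLF11 kept its direction in all 17 alternatives on the same probe set (adjusted p 0.00258 to 0.152), lost its call in the fit on the 7 arrays alone and without vehicle animal 3, and reversed to 0.74 in its other probe set. The cause was not tested. Against 3 mg/kg/day the count was 0 with array weights and 0 to 2 without single animals. Against 150 mg/kg/day it was 4 with a pseudocount of 64, 2 without the filter, 6 with equal medians, 0 without the intensity trend, 0 with array weights, 2 in the fit on those groups alone, 0 without both arrays that correlate least (chosen after seeing the data) and 0 to 6 without single animals. Against 400 mg/kg/day it was 76 in the fit on those groups alone, 25 higher and 51 lower, and 105 to 186 without single animals. With equal medians 25.8% of those calls were higher, against 47.2% as reported. Of 396 list medians 33 moved by more than the spread between animals, and 9 of 36 lists had medians on both sides of 0, among them fatty acid and triglyceride synthesis (-0.05 to 0.22), apoptosis (-0.07 to 0.21), T and NK cell markers (-0.32 to 0.03), oxidative stress (-0.01 to 0.21) and metallothioneins (-0.18 to 0.08).

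With the replicate number as a block the counts were 4 against vehicle (2 higher, 2 lower), 0 against 3, 2 against 150 and 210 against 400 mg/kg/day. The animals share only a number: deviations of same-numbered animals at 30 mg/kg/day and on vehicle correlated at -0.087, -0.012 and 0.009.

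With 3 vehicle animals, a typical difference had a standard error of 0.34 on the log2 scale. Signals near the filter's limit have no exact fold change.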
